A study of Homo sapiens with 6 samples.

Results

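The genes described here are 42 genes of DNA replication and of the entry from G1 into S phase of the cell cycle, chosen by symbol from a fixed list, among 34644 gene names in the deposited tables. Their messenger RNA was measured by RNA sequencing in HPC, a human podocyte line (podocytes are the epithelial cells that wrap the filtering capillaries of the kidney). All 6 libraries came from cells of genotype WT kept in high glucose, in RPMI-1640 medium with 10% fetal bovine serum. In 3 libraries the cells had received a lentivirus overexpressing PRDM16, a zinc finger transcription factor, and in the 3 others a negative control lentivirus, labelled NC. The titles give 24 h for every library. Not given in the sources used here are which promoter drives PRDM16, how much virus was used, the glucose concentration and the event from which the 24 h count. Separate cultures are not named for the libraries of a group, and p-values therefore reflect the spread among these samples alone, which may be technical. Every comparison below sets the PRDM16 lentivirus against the NC lentivirus, both in high glucose.

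Replication starts when ORC and its partners CDC6 and CDT1 load the ring-shaped MCM helicase on DNA in G1. Cyclins D and E then drive kinases that inactivate the retinoblastoma protein RB1, which frees the E2F factors to activate genes of S phase, among them many genes of the helicase, the polymerases and the nucleotide supply. CDC45 and the GINS complex turn the loaded helicase on, and polymerases with the PCNA clamp copy the strands. Podocytes of the adult kidney are known for dividing very rarely, whereas immortalised lines divide in culture.

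The E2F factors bind short sites near the start of many of these genes, so the stretch around the start is shown for 4 of them. RefSeq (GRCh38.p14) gave windows of 250 bases before to 50 bases after a start site for 35 of the 42 genes, 43 windows in all. The letters searched, on both strands, were TTTCCCGC, TTTCGCGC, TTTGCCGC and TTTGGCGC, which can overlap each other and are in capitals in the windows below. The windows are those of E2F1 (chr20:33686336-33686635, minus strand) and CDT1 (chr16:88803539-88803838, plus strand), the genes with the smallest p-values below, of CDC6 (chr17:40287629-40287928, plus strand), whose fold change was nearest to 0, and of MCM6 (chr2:135876394-135876693, minus strand), which had the most matches.
E2F1: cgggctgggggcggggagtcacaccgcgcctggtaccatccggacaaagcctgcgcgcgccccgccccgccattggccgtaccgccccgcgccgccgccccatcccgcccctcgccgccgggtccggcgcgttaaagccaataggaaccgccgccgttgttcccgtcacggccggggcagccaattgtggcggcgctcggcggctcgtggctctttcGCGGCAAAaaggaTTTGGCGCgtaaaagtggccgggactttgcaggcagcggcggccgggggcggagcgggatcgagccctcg
CDT1: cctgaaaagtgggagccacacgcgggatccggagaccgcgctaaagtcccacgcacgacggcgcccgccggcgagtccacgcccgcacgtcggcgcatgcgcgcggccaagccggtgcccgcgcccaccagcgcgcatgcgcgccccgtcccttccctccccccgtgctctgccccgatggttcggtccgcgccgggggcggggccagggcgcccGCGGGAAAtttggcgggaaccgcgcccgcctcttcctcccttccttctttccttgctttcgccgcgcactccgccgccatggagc
CDC6: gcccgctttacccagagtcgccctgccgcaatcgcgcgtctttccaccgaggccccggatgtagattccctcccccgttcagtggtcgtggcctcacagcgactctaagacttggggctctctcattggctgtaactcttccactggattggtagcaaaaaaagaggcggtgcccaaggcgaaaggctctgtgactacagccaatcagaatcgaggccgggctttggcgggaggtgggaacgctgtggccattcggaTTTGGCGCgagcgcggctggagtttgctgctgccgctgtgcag
MCM6: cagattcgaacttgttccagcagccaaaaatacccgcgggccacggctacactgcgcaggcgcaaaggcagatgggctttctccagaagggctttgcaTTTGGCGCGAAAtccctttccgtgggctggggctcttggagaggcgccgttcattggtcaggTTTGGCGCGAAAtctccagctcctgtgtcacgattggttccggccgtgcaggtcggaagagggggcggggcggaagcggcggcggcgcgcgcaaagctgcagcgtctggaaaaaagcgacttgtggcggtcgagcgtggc
Counting from 0 at the start site, E2F1 had matches at -33 and -20 and CDT1 at -35, each on the side before the start. CDC6 had a match at 7, just after the start. MCM6 had 4 matches as 2 overlapping pairs, which begin at -152 and -148 and at -90 and -86. At least 1 match was found in 18 of the 43 windows (41.9%), against 1164 of 35116 windows of all genes (3.31%) and 4.10% of the windows of protein-coding genes. The letters CCAAT, the site of the factor NF-Y, on either strand, were in 60.5% of the 43 windows and in 34.6% of all windows. These are matches of letters and were not tested for binding.

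The libraries held 20147135, 28730146 and 41280350 counts with the PRDM16 lentivirus and 22460881, 27655378 and 20969179 with the NC lentivirus. PRDM16 itself (chr1:3069203-3438621, plus strand) had 11, 18 and 24 counts in the PRDM16 libraries and 0 in each NC library, where 3 counts, the limit that a count of 0 allows, stand for 0.108 to 0.143 CPM (counts scaled to 1000000 in each library). It passed the quasi-likelihood test of edgeR (adjusted p = 0.00013). Its level was low all the same, at 0.571, 0.646 and 0.576 CPM in the PRDM16 libraries, scaled by the TMM factors of edgeR. Corrected for its listed length of 8698 bases, its mean over all 6 libraries, the NC libraries at 0 included, lay at the 0.0996 percentile of the genes tested. The podocyte genes NPHS1, WT1 and PTPRO lay under 0.2 CPM, here and below scaled by the TMM factors of edgeR, in every library, so those defining markers did not bear out the label of the line. PODXL, SYNPO and CD2AP were detected, and the summed level of the 8 podocyte markers was 288 to 316 CPM in the PRDM16 libraries and 323 to 407 in the NC libraries. That sum was mostly CD2AP and PODXL. CD2AP had 257 CPM in NC library 2, against 184 and 175 in NC libraries 1 and 3. Its log2 fold change of -0.35 was -0.08 with the length and GC trend removed, as described below. In the same unit, the 9 markers of parietal and tubular epithelium summed to 2974 to 3145 in the PRDM16 libraries and 2615 to 2908 in the NC libraries, and the 5 of mesangial cells and fibroblasts to 388 to 412 in the PRDM16 libraries and 349 to 435 in the NC libraries. The epithelial sum was almost wholly KRT8, KRT18, CLDN1 and PAX8. LRP2 was at 0, and AQP1 averaged 2.47 CPM in the PRDM16 libraries and 2.33 in the NC libraries. CDH1, CUBN and SLC34A1 lay lower than AQP1. The 4 leukocyte markers, almost wholly CD68, summed to 178 to 182 in the PRDM16 libraries and 135 to 162 in the NC libraries, with CD3E at 0, and the 5 endothelial markers to 3.07 to 3.62 in the PRDM16 libraries and 2.92 to 3.26 in the NC libraries, with KDR at 0. Their part in the results below was not tested. Within a group the libraries differed by more than sampling noise, and NC library 2 stood apart in a way that touches these genes and is described with them. In bulk samples such as these, fewer cells in S phase and less RNA per cell cannot be told apart.

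The replication genes were abundant in this line with either lentivirus. Levels between genes are given as TPM (transcripts scaled to the same total in each library), which are corrected for length, as the mean of all 6 libraries. The median of the 42 genes was 100.6 TPM, at the 88.1 percentile of the 15053 genes tested, whose own median was 12.7 TPM, and 41 of the 42 lay above that. The highest was PCNA, the sliding clamp, at 781 TPM, with a lowest and a highest library of 646 and 887 TPM. Then came MCM7 of the helicase at 701 TPM, thymidine kinase TK1 at 521 TPM, thymidylate synthase TYMS at 365 TPM and the clamp loader subunit RFC2 at 280 TPM. The ranges of PCNA and MCM7 over the libraries overlapped (646 to 887 and 668 to 729 TPM), so these neighbours were not separated by their spread, whereas those of MCM7, TK1, TYMS and RFC2 did not touch. The lowest were POLA1, the catalytic subunit of polymerase alpha, at 13.5 TPM, the replication initiation factor MCM10 at 13.4 TPM and, far under them, E2F2 at 0.762 TPM.

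**Figure D1:**
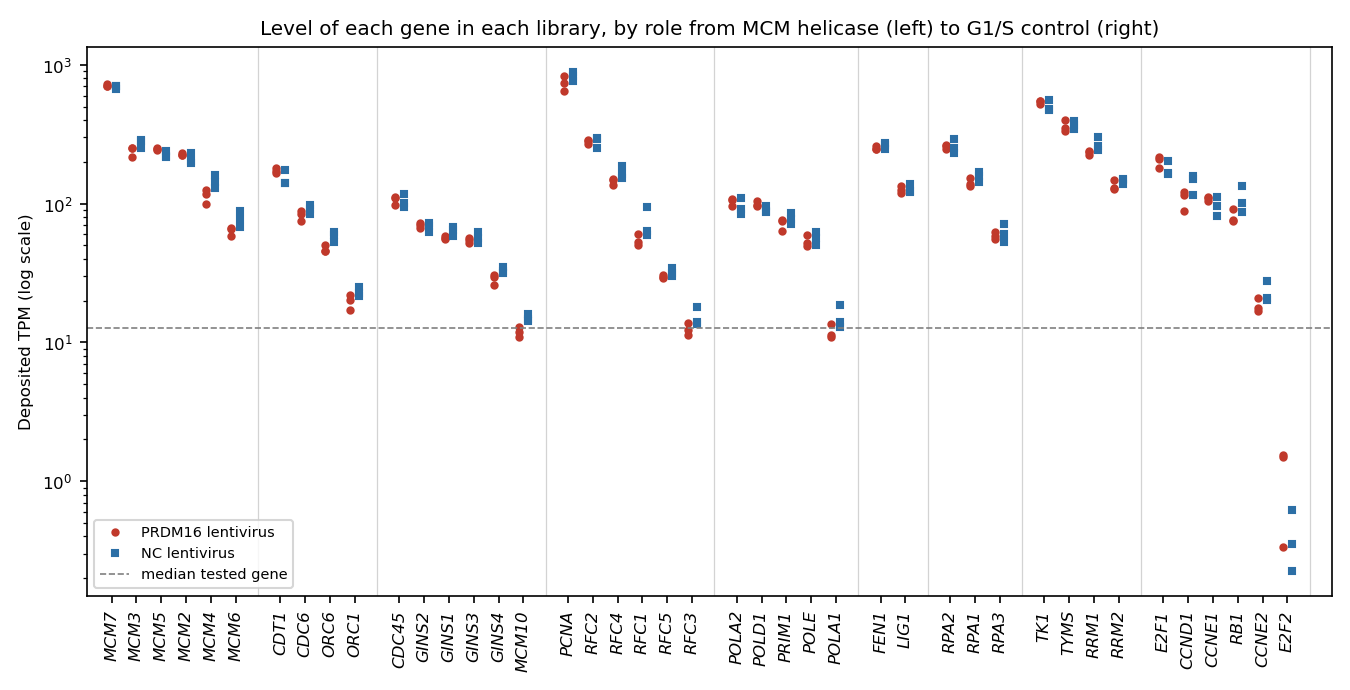
Each point is the deposited TPM (log scale) of a gene in 1 library, PRDM16 lentivirus in red on the left and NC lentivirus in blue on the right of each gene. Genes are grouped by role from the MCM helicase to G1/S control, and the dashed line is the median tested gene at 12.7 TPM. PCNA, MCM7 and TK1 lie highest and E2F2 lies under all others.

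Genes that act in one complex or one process stood at unequal levels. The 6 MCM subunits, which form a ring with 1 copy of each, ran from MCM7 at 701 TPM to MCM6 at 70.8 TPM, a ratio of 9.89. The clamp loader and its clamp ran from PCNA at 781 TPM to RFC3 at 13.9 TPM, a ratio of 56.4. In the other groups apart from G1/S control, where E2F2 lay far under the rest, the ratio of the highest to the lowest was 7.55 for licensing (CDT1 over ORC1), 7.85 for helicase activation (CDC45 over MCM10), 7.31 for polymerases and primase (POLA2 over POLA1), 4.29 for the single-strand binding proteins (RPA2 over RPA3), 3.71 for nucleotide supply (TK1 over RRM2) and 2.02 for Okazaki fragment maturation (FEN1 over LIG1). The TPM of a gene rests on the length the authors listed for it. RFC3, listed at 11245 bases, averaged 53.8 CPM in the PRDM16 libraries and 59.3 in the NC libraries. RFC5, listed at 4523 bases, averaged 51.4 and 50.4 CPM but stood at 30.8 TPM.

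None of the 42 genes passed the test between the lentiviruses. Of the 15053 genes tested with edgeR, 14 were higher (0.093%) and 4 lower (0.0266%) in the PRDM16 libraries at an adjusted p under 0.05. That balance did not hold in every setting, with 11 higher and 11 lower in a fit with a replicate block, 5 higher and 8 lower without NC replicate 2, and 56 higher and 92 lower without NC replicate 3. In the other settings tried more genes were higher than lower, such as 30 and 7 in DESeq2. Of the 42 genes, 0 passed in either direction, and their lowest adjusted p was 0.251. DESeq2 likewise passed 0 of them, with a lowest adjusted p of 0.118. All 42 passed the filter on low counts. Their median log2 fold change was 0.03, against -0.02 over all genes tested, with 24 positive and 18 negative. Apart from E2F2, log2 fold changes lay between -0.27 and 0.33, with standard errors of 0.11 to 0.13. The data bound the size of any difference: the 95% interval of each gene, taken gene by gene, lay inside a 1.5-fold difference either way for 41 of the 42. E2F2 was the exception. With the length and GC trend of each library removed, described below, CCND1 was also outside, with an interval of -0.96 to 0.01, and with the replicate block CCNE1 was. With the trend removed and the block added, CCND1 was again outside, at -0.63 to -0.28, without 0. Its interval also left out 0 without NC replicate 1 (-0.62 to -0.13). The same was seen without PRDM16 replicate 2 (-0.61 to -0.013) and without PRDM16 replicate 3 (-0.57 to -0.0048). Upper quartile factors (-0.51 to -0.0024) and no count filter (-0.47 to -0.018) left out 0 as well. The interval of CCND1 held 0 in the main fit (-0.50 to 0.01), without NC replicate 2 (-0.50 to 0.10) and in the other edgeR settings. With a library left out, 34 to 41 intervals lay inside, the lowest number without NC replicate 1.

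**Figure D2:**
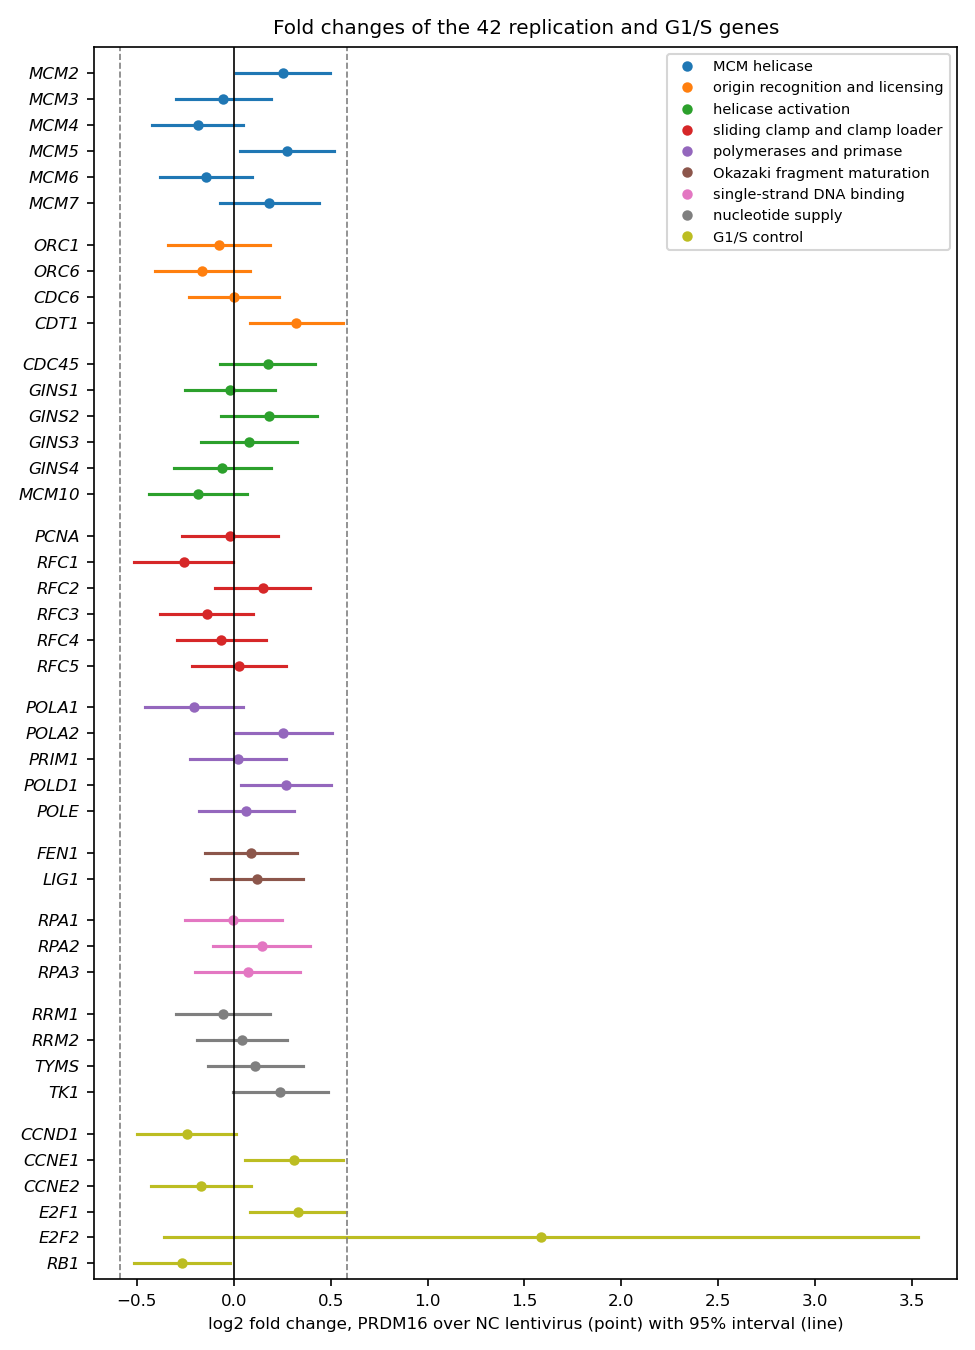
The point is the log2 fold change, PRDM16 over NC lentivirus, and the line its 95% interval, for each gene in rows by role. Dashed lines mark a 1.5-fold difference, which 41 of the 42 intervals do not cross, and the interval of E2F2 runs from -0.36 to 3.53.

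At an unadjusted p under 0.05, 7 of the 42 genes had a positive log2 fold change (16.7%, against 9.8% of all genes tested) and 2 a negative one (4.76%, against 7.08%). The 7 were CDT1, E2F1, CCNE1, POLD1, MCM5, MCM2 and POLA2, and the 2 were RB1 and RFC1. The PRDM16 libraries were all higher than the highest NC library for 5 genes (11.9%, against 12.4% of all genes tested) and all lower than the lowest for 2 (4.76%, against 8.7%). The 5 were CDT1, CCNE1, POLD1, MCM5 and MCM2, and the 2 were ORC6 and MCM10. The counts of separated groups thus stood at or under the background. Leaving out a library moved the count of 9 genes with a small p to 3 without NC replicate 2 (CDT1, E2F1 and POLD1), 2 without PRDM16 replicate 1 (CCNE1 and CDT1), 4 without PRDM16 replicate 2 and 14 without NC replicate 1.

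The MCM helicase unwinds DNA ahead of the polymerases. In the values that follow, the libraries are in the order 1, 2 and 3, and an adjusted p is that of edgeR over all genes tested. MCM5 had 409, 387 and 371 CPM in the PRDM16 libraries, against 345, 291 and 328 CPM in the NC libraries, a log2 fold change of 0.27 ± 0.12 (SE, adjusted p = 0.271). MCM2 had 320.0, 309 and 294 CPM in the PRDM16 libraries, against 286, 226 and 262 CPM in the NC libraries (0.25 ± 0.12, adjusted p = 0.286). The groups did not overlap in either gene, with NC library 2 lowest. MCM7, the most abundant subunit, had 887, 826 and 762 CPM in the PRDM16 libraries, against 746, 660.1 and 773 CPM in the NC libraries, so that PRDM16 library 3 lay among the NC libraries (0.18 ± 0.13). The log2 fold changes of the other subunits were negative, at -0.05 for MCM3, -0.14 for MCM6 and -0.19 for MCM4, with overlapping groups. On the deposited exons 31.4% of MCM2 lies opposite LOC107986126, and no source used here gives the strand setting of the counting, but that neighbour stood at only 0.422 ± 0.103 CPM in the PRDM16 libraries and 0.469 ± 0.124 CPM in the NC libraries (SD, n = 3 each).

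Among the licensing factors CDT1, which with CDC6 places the helicase on origins and is destroyed as S phase begins, stood out most. CDT1 (chr16:88803789-88809258, plus strand) had 184, 172 and 173 CPM in the PRDM16 libraries, against 162, 124 and 137 CPM in the NC libraries. The groups did not overlap, and the mean was 176 ± 6.78 CPM in the PRDM16 libraries and 141 ± 19.6 CPM in the NC libraries (SD, n = 3 each). The log2 fold change was 0.32 ± 0.12 (SE), with an adjusted p of 0.251 in edgeR, and its 95% interval was 0.08 to 0.56. CDC6, its partner, averaged 149.7 ± 6.92 CPM in the PRDM16 libraries and 149.6 ± 9.91 CPM in the NC libraries (log2 fold change 0.00083 ± 0.11). ORC6, a subunit of the origin recognition complex, averaged 32.9 ± 0.455 CPM in the PRDM16 libraries and 36.8 ± 1.33 CPM in the NC libraries, without overlap (-0.16 ± 0.12, adjusted p = 0.444). ORC1, the largest subunit, had a log2 fold change of -0.08.

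The factors that switch the helicase on differed little and in no common direction. MCM10, which helps that step, had 20.2, 21.2 and 21.3 CPM in the PRDM16 libraries, against 22.9, 23.8 and 24.6 CPM in the NC libraries. All PRDM16 libraries were lower, but the difference was small (-0.18 ± 0.12, adjusted p = 0.402 in edgeR). CDC45 had a log2 fold change of 0.18. The 4 subunits of the GINS complex, which stay bound to each other, had -0.02 for GINS1, 0.18 for GINS2, 0.08 for GINS3 and -0.06 for GINS4.

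PCNA, which holds the polymerases on DNA, had 365, 451 and 373 CPM in the PRDM16 libraries, against 374, 407 and 424 CPM in the NC libraries. The groups lay across each other (log2 fold change -0.02 ± 0.12), and the 95% interval was -0.27 to 0.23. Of its loader, RFC2 had 216, 213 and 184 CPM in the PRDM16 libraries, against 198, 155 and 199.98 CPM in the NC libraries (0.15 ± 0.12). RFC1, the largest loader subunit, had 104, 96.0 and 107 CPM in the PRDM16 libraries, against 109.8, 151 and 106 CPM in the NC libraries. Only NC library 2 stood well above the PRDM16 libraries, and the log2 fold change of RFC1, -0.26 ± 0.13 (adjusted p = 0.293), was -0.07 without NC replicate 2. RFC3, RFC4 and RFC5, the other subunits measured, had log2 fold changes of -0.14, -0.06 and 0.03. Of the RFC5 exons 13.7% lie opposite those of WSB2, which was more abundant than RFC5, at 80.1 ± 2.81 CPM in the PRDM16 libraries and 76.4 ± 6.14 CPM in the NC libraries (SD, n = 3 each).

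POLD1, the catalytic subunit of polymerase delta, which copies the lagging strand, had the smallest SD relative to its mean, in either group, among the 9 genes with a small p. POLD1 (chr19:50384291-50418018, plus strand) had 152, 149 and 148 CPM in the PRDM16 libraries, against 134, 115 and 125 CPM in the NC libraries (0.27 ± 0.11, adjusted p = 0.271 in edgeR). The groups did not overlap. The subunits of polymerase alpha, which starts each strand with primase, lay on opposite sides of 0. POLA2 had 223, 197 and 201 CPM in the PRDM16 libraries, against 200.3, 144 and 175 CPM in the NC libraries (0.26 ± 0.12), and NC library 1 reached into the PRDM16 range. POLA1 had 43.3, 40.9 and 46.6 CPM in the PRDM16 libraries, against 46.8, 58.6 and 45.1 CPM in the NC libraries (-0.20 ± 0.13). The primase subunit PRIM1 had a log2 fold change of 0.02, and POLE, the leading strand polymerase, 0.06. FEN1, which trims the flaps of Okazaki fragments, had 0.09 and LIG1, which seals them, 0.12. The subunits of RPA, which coats single-stranded DNA, had -0.0031 for RPA1, 0.14 for RPA2 and 0.07 for RPA3. The groups overlapped in POLA1, PRIM1, POLE, FEN1, LIG1 and the RPA genes.

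TK1, which makes thymidine monophosphate from thymidine, had 373, 347 and 334 CPM in the PRDM16 libraries, against 334, 266 and 292 CPM in the NC libraries. PRDM16 library 3 and NC library 1 met at the same level (0.24 ± 0.12, adjusted p = 0.301 in edgeR). TYMS, which makes the same nucleotide from dUMP, had 243, 281 and 228 CPM in the PRDM16 libraries, against 249, 203 and 243 CPM in the NC libraries (0.11 ± 0.12). The exons of TYMS lie for 53.8% opposite those of ENOSF1, which averaged 56.7 ± 1.29 CPM in the PRDM16 libraries and 64.0 ± 2.06 CPM in the NC libraries (SD, n = 3 each), and without the strand setting their reads cannot be told apart. RRM1 and RRM2, the subunits of ribonucleotide reductase, had log2 fold changes of -0.06 and 0.04.

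The regulators of G1/S lay on both sides of 0. E2F1, an activator of S phase genes, had 235, 189 and 204 CPM in the PRDM16 libraries, against 192, 147 and 160.0 CPM in the NC libraries. PRDM16 library 2 lay just under NC library 1, so the groups overlapped, and the log2 fold change was 0.33 ± 0.12 (adjusted p = 0.251 in edgeR). CCNE1, a cyclin E whose kinase fires entry into S phase, had 81.8, 83.8 and 78.4 CPM in the PRDM16 libraries, against 76.3, 52.0 and 68.4 CPM in the NC libraries. The groups did not overlap, and the log2 fold change of 0.31 ± 0.13 (adjusted p = 0.265) was 0.18 without NC replicate 2. The other cyclin E, CCNE2, had -0.17 ± 0.13, and 63.2% of its exons lie opposite those of INTS8, which stood at 17.8 ± 1.06 CPM in the PRDM16 libraries and 19.5 ± 2.45 CPM in the NC libraries (SD, n = 3 each).

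CCND1 is cyclin D1, which acts earlier, in response to growth factors. CCND1 (chr11:69641156-69654474, plus strand) had 151, 190.0 and 185 CPM in the PRDM16 libraries, against 172, 218 and 233 CPM in the NC libraries. The groups overlapped through PRDM16 libraries 2 and 3 and NC library 1 (-0.24 ± 0.13, adjusted p = 0.305 in edgeR). RB1 (chr13:48303751-48481890, plus strand), which holds E2F factors inactive, had 144, 142 and 158 CPM in the PRDM16 libraries, against 170.2, 211 and 153 CPM in the NC libraries. NC library 3 lay within the PRDM16 range, and the log2 fold change of -0.27 ± 0.12 (adjusted p = 0.277) was -0.12 without NC replicate 2.

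**Figure D3:**
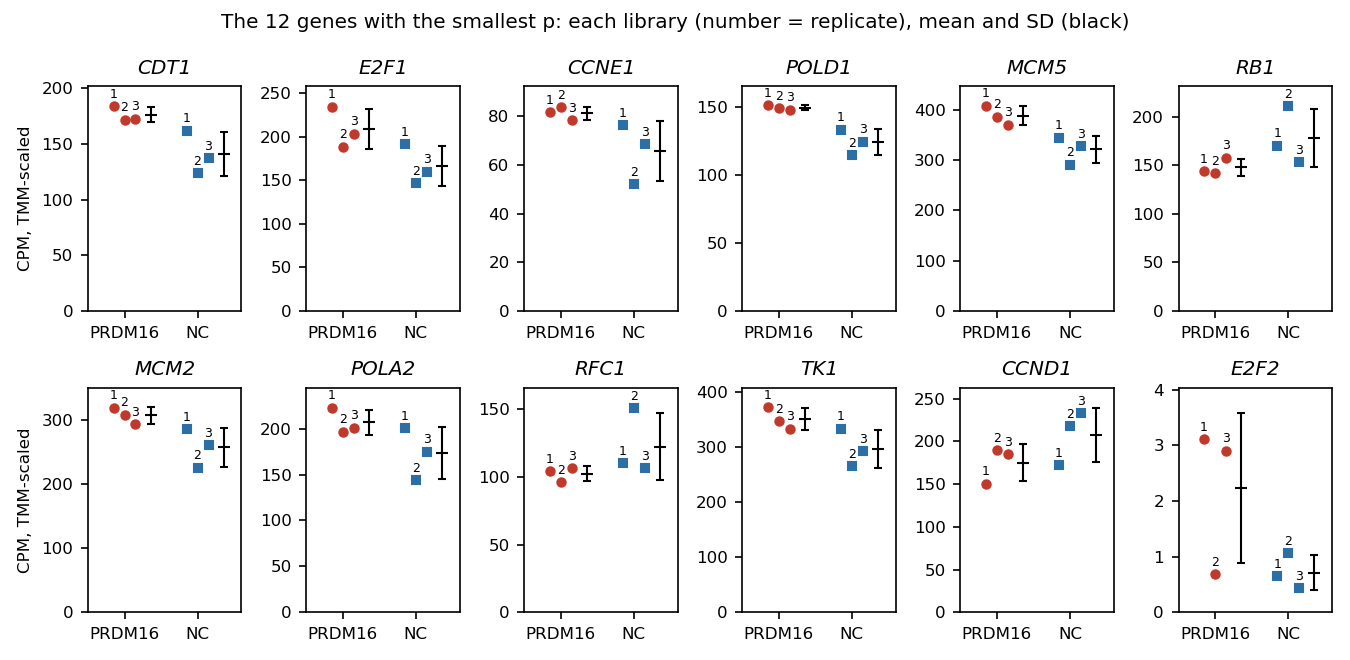
Each panel shows 1 of the 12 genes with the smallest p as TMM-scaled CPM on an axis from 0, with a point per library numbered by replicate, PRDM16 lentivirus in red on the left and NC lentivirus in blue on the right, and the mean with its SD in black. NC library 2 is the lowest of the NC libraries in the 7 genes from CDT1 to POLA2 with a positive fold change and the highest in RB1 and RFC1.

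E2F2, another activating E2F, was the only one of the 42 genes with a fold change over 1.5 and by far the least certain. E2F2 had 3.12, 0.682 and 2.90 CPM in the PRDM16 libraries, against 0.654, 1.06 and 0.431 CPM in the NC libraries. PRDM16 library 2 lay among the NC libraries, and the log2 fold change was 1.58 ± 0.73 (adjusted p = 0.336 in edgeR). Without PRDM16 replicate 2 it was 2.01 and passed (adjusted p = 3.9e-09), the sole passing value of any of the 42 genes under any setting tried. The deposited tables list E2F2 at 2 places, and nearly all of its counts lay at the second. On chromosome 1 (chr1:23505696-23531250, minus strand) it had 0, 1 and 0 counts in the PRDM16 libraries, against 1, 2 and 0 in the NC libraries. On a scaffold outside the chromosomes it had 60, 18 and 121 counts in the PRDM16 libraries, against 14, 29 and 9 in the NC libraries.

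Of the genes listed beside E2F2 on that scaffold, 3 that differed widely between libraries, chosen after their values were seen, are given here. Not all neighbours did so: ZNF436, a zinc finger protein, had 8, 18 and 21 counts there in the PRDM16 libraries, against 13, 12 and 12 in the NC libraries. TCEA3, a transcription elongation factor, had 89, 251 and 216 counts there in the PRDM16 libraries, against 8, 12 and 10 in the NC libraries. Its log2 fold change over both places was 3.87 ± 0.27 (adjusted p = 6.2e-10 in edgeR), so it rose. ID3, an inhibitor of helix-loop-helix factors, had 561, 64 and 95 counts in the PRDM16 libraries, against 69, 54 and 36 in the NC libraries, with PRDM16 library 1 far above the rest. HNRNPR, an RNA-binding protein, had 89, 179 and 204 counts in the PRDM16 libraries, against 815, 751 and 106 in the NC libraries, with NC library 3 far under the other NC libraries. The handling of reads that fit the scaffold and the chromosome alike is not stated in those sources, and its part in the E2F2 values was not tested.

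**Figure D4:**
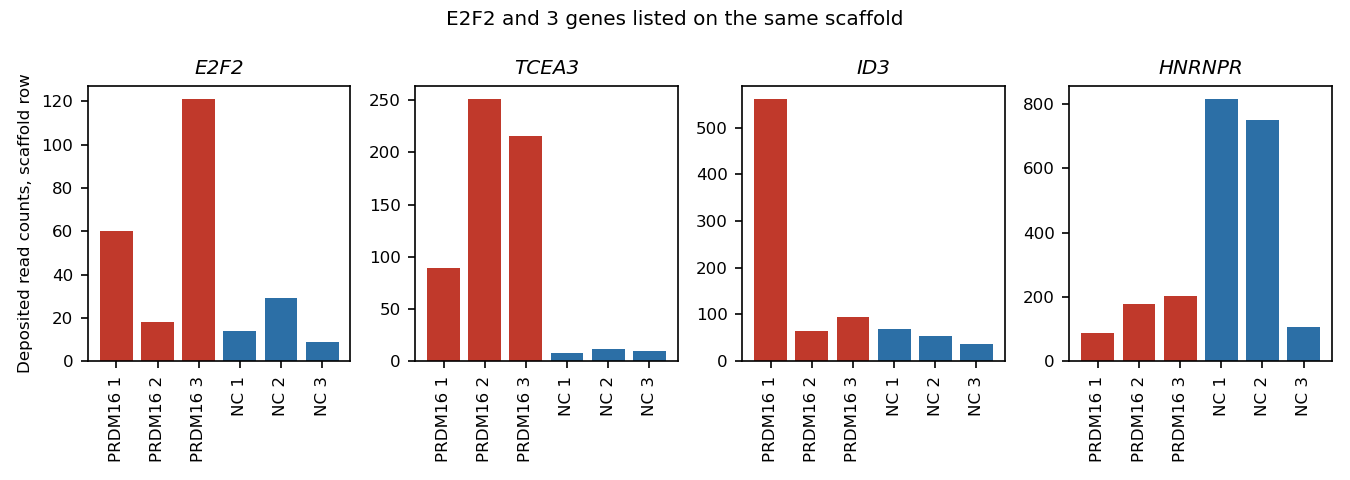
Bars are the deposited read counts, from 0, of E2F2 and 3 neighbours at their scaffold listing in each library, PRDM16 lentivirus in red and NC lentivirus in blue. Counts of E2F2 are 60, 18 and 121 against 14, 29 and 9, and those of ID3 and HNRNPR differ several-fold between libraries of a group.

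The small fold changes of the 42 genes followed the base composition of their transcripts. Above the median GC content of the 42 (50.5%), 17 of 21 log2 fold changes were positive and their median was 0.18, and of the others 7 of 21 were positive and the median was -0.06. All genes tested split the same way at that GC content, with a median of 0.16 above it and -0.15 at or below it. Spearman's rho of the log2 fold change and GC content was 0.68 across the 42 genes and 0.65 across 13575 tested genes whose GC content was known, a description across genes that share the same 6 libraries. Among the GC-rich 21, 28.6% had a positive fold change at an unadjusted p under 0.05, against 20.6% of all genes above that GC content. CDT1, POLD1, E2F1 and TK1 are GC-rich, at 61.5% to 65.3%, and RB1 and RFC1 are GC-poor, at 39.5% and 41.7%.

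NC library 2 stood farthest from the others in this respect. Relative to the mean of all libraries its GC-rich replication genes had a median deviation of -0.25 on the log2 scale and its GC-poor ones 0.10, and in the other libraries the medians lay between -0.07 and 0.16. NC library 2 was the lowest of the 6 libraries for 22 of the 42 genes and the highest for 9. With the trend on length and GC content removed from each library, rho was 0.15 across the 42 genes, and the medians of the GC-rich and GC-poor genes were both 0.04. The log2 fold change was then 0.04 for CDT1, 0.03 for POLD1, 0.09 for E2F1, -0.02 for TK1, -0.07 for RB1 and -0.08 for RFC1. CCNE1 and POLA2, whose GC content is near the median, had 0.27 and 0.29. CCND1, which is GC-rich but had a negative fold change, moved to -0.47, farthest from 0 among the genes other than E2F2 (edgeR adjusted p = 0.736), and none of the 42 passed.

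**Figure D5:**
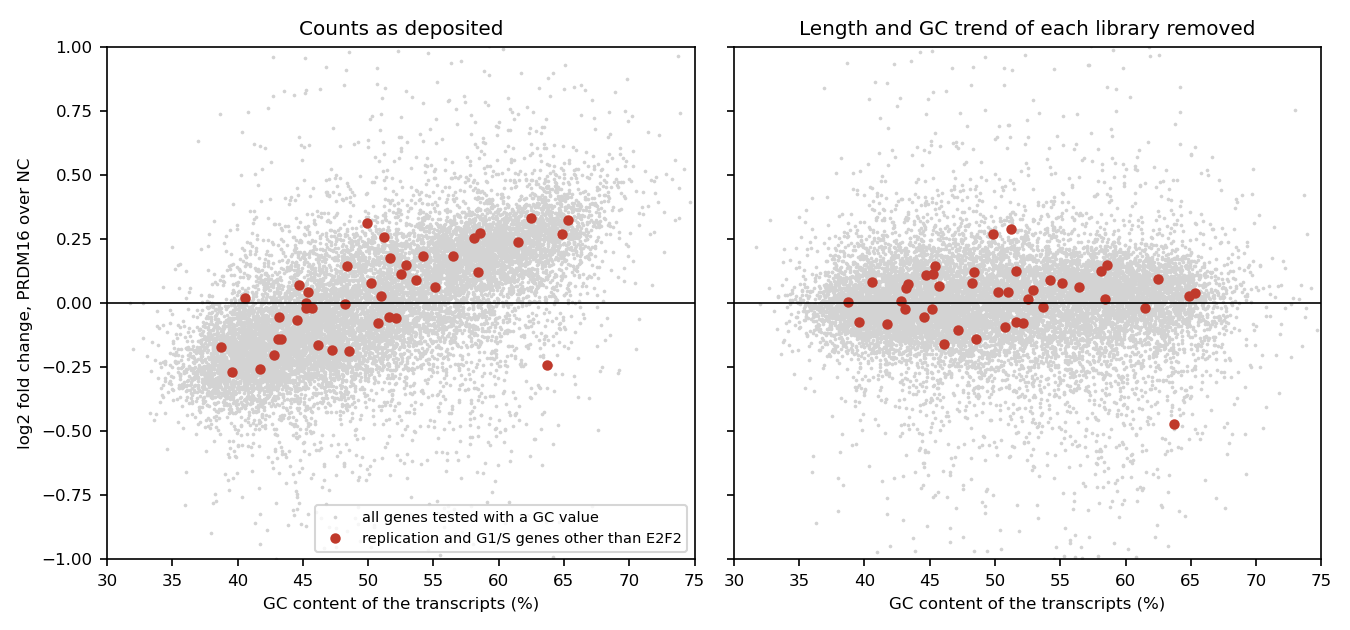
Each point is a gene, with the GC content of its transcripts in percent and its log2 fold change, PRDM16 over NC lentivirus, from the counts as deposited (left) and with the length and GC trend of each library removed (right); the 42 genes except E2F2 are in red, all tested genes in grey, and the axis is cut at 1 either way. The red points rise with GC content on the left and show little such rise on the right. There CCND1 at -0.47 lies farthest from 0, and CCNE1 and POLA2 lie at 0.27 and 0.29.

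Genes with and without the E2F letters in the windows printed and searched above differed little. The 18 genes with a match had a median log2 fold change of 0.10 and the 17 with a window but no match 0.02. With the length and GC trend removed the medians were 0.06 and 0.03. The only window of RB1, among those without a match, begins far inside the gene as listed (its start site lies 172699 bases from the listed start), and without RB1 the median of the genes with no match was 0.02. E2F1 and CDT1 carry matches, and so does MCM6, the gene with the most, whose log2 fold change was -0.14.

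Other genes of the same pathways, listed by their textbook roles, did not pass either. Of 30 other replication factors, 0 passed, and at an unadjusted p under 0.05 there were 4 positive and 4 negative, where 9.8% of all genes tested were positive and 7.08% negative at that p. The median log2 fold change of the 30 was -0.09, with 11 positive and 19 negative, and 0.04 with the length and GC trend removed. The smallest p-values belonged to POLD2, the partner of POLD1 (0.30 ± 0.12), the ribonuclease subunit RNASEH2A (0.30 ± 0.12), the helicase RECQL4 (0.26 ± 0.11) and the histone chaperone ASF1B (0.32 ± 0.15). With the trend removed these 4 stood at 0.13, 0.08, 0.01 and 0.09, in that order. Of 10 other genes of nucleotide supply, 0 passed, with 2 positive and 1 negative at that p, and those named by p are the nucleoside transporter SLC29A1 (0.25 ± 0.12), the pyrophosphatase DCTPP1 (0.24 ± 0.12) and the dNTP hydrolase SAMHD1 (-0.24 ± 0.12). Of 26 other regulators of G1/S, 0 passed in edgeR, with 3 positive and 3 negative at that p. The kinase inhibitor CDKN2A averaged 268 ± 20.3 CPM in the PRDM16 libraries and 208 ± 22.8 CPM in the NC libraries, without overlap (SD, n = 3 each), with a log2 fold change of 0.37 ± 0.12 (edgeR adjusted p = 0.228). Cyclin CCND3 had 0.30 ± 0.12, the repressor E2F5 -0.50 ± 0.22 at a mean of 2.46 TPM, and the cyclin D kinase CDK4 0.28 ± 0.13. With the length and GC trend removed the values were 0.20 for CDKN2A, 0.13 for CCND3, -0.38 for E2F5 and 0.10 for CDK4. Those of SLC29A1, DCTPP1 and SAMHD1 were then 0.12, 0.04 and -0.09.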

How the data were processed

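Per the labels' protocols, libraries were made by PCR from polyadenylated RNA primed with random hexamers. For each library the authors deposited a table of 38648 lines. Per the file headers, its columns are read counts, which are raw, and TPM and FPKM values. Per the submitters' processing notes the genome is hg38. Not given in the sources used here are the aligner, the counter, its strand setting and the annotation. The lines of 7 genes, broken over several lines, were rejoined. Counts were summed over lines sharing a gene name (34644 names, 2008 with more than 1 line). FPKM was used only to check library totals. Deposited TPM served for levels between genes.

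Genes were tested with edgeR 4.0.16 (R 4.3.3; robust quasi-likelihood test, TMM, filterByExpr at its defaults, minimum count 10 and total 15) and Benjamini-Hochberg adjustment over 15053 genes; code was tested on simulated data. Depth of 20147135 to 41280350 counts makes 3 counts 0.0727 to 0.149 CPM, and limits from counts cover counting error only. GC content is from GENCODE transcripts (90.2% of tested genes, all 42 members). Its trend and that of length were removed by natural splines with 5 degrees of freedom per library. The alternatives used DESeq2 1.42.0, limma 3.58.1, other factors and filters, a replicate block and libraries left out. The 42 genes and all other lists were chosen with earlier results of these data known. Library values are given for the 12 genes with the smallest p, the 5 highest and the 3 lowest in TPM, and up to 4 genes of each other list are named by p. Some genes of these lists are not reported here.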

Additional observations from a re-analysis of the deposited data

How the results depend on the processing

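Over 16 other settings none of the 42 genes passed, except E2F2 without PRDM16 replicate 2. Their median log2 fold change was 0.0055 to 0.074 in 15 settings and -0.11 by limma on log2(TPM + 1), where all genes had a median of -0.12. The count of all genes that passed, 18 by edgeR, was 11 with relative log expression factors, 114 with no count filter, 37 in DESeq2, 4 in limma-voom, 10 without summing listings, 5 with the length and GC trend removed, also 5 with the replicate block added, 3 on TPM, and 13 to 148 with a library left out. The count among the 42 genes was 0 to 1 with a library left out. With the replicate block alone 22 passed. Same-numbered libraries deviated together in replicate 1 (correlation 0.119) but not in replicates 2 and 3 (-0.124 and -0.153), so the numbers were not taken to pair the samples. Of 671 log2 fold changes 51 turned direction, in 21 genes, all with a size of 0.24 or less. CDC6 turned with relative log expression (-0.0076) and upper quartile factors (-0.012), DESeq2 (-0.0075) and separate listings (-0.0046). With the trend removed, GINS1 (0.068), RFC3 (0.073), POLA1 (0.0099), FEN1 (-0.017), RPA1 (0.078), RRM1 (0.058), TK1 (-0.020) and CCNE2 (0.0045) turned, and with the replicate block added they stood at 0.067, 0.074, 0.012, -0.017, 0.077, 0.057, -0.020 and 0.0039. On TPM, CDC6 (-0.14), GINS3 (-0.058), RFC5 (-0.11), PRIM1 (-0.12), POLE (-0.069), FEN1 (-0.051), LIG1 (-0.017), RPA3 (-0.0605), RRM2 (-0.10) and TYMS (-0.032) turned. With a library left out, the ranges that cross 0 were -0.13 to 0.037 for PCNA, -0.035 to 0.23 for RPA3, -0.062 to 0.048 for CDC6, -0.016 to 0.077 for RFC5, -0.032 to 0.064 for PRIM1, -0.084 to 0.0403 for GINS1, -0.078 to 0.10 for RPA1, -0.0104 to 0.14 for GINS3, -0.041 to 0.14 for POLE, -0.14 to 0.0029 for MCM3, -0.18 to 0.021 for ORC1 and -0.12 to 0.017 for GINS4. The cause of these turns was not tested. With 3 libraries a group, the standard errors of 0.11 to 0.13 on the log2 scale limit what can be seen in a single gene.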

Other observations

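Genes of later cell cycle stages were measured beside the replication genes. Of 16 genes of mitosis and proliferation, 0 passed the edgeR test, with 0 positive and 2 negative at an unadjusted p under 0.05 (9.8% and 7.08% of all genes tested), and their summed level was 942 to 1062 CPM in the PRDM16 libraries and 939.9 to 1180.0 CPM in the NC libraries. Topoisomerase TOP2A, which untangles chromosomes, averaged 131 ± 18.1 CPM in the PRDM16 libraries and 169 ± 41.7 CPM in the NC libraries (SD, n = 3 each), a log2 fold change of -0.37 ± 0.16 (SE). The spindle motor KIF11 had -0.33 ± 0.15, the anaphase activator CDC20 0.25 ± 0.13 and the checkpoint kinase BUB1B -0.27 ± 0.14. The median of the 16 was -0.06, and 0.03 with the length and GC trend removed. Of 16 symbols of replication-dependent histones, 8 were in the tables and 5 could be tested, with 0 passed. The smallest p of the 5 was that of H1-2, a linker histone, with a log2 fold change of 0.22 ± 0.13. H3C2, H4C3 and H2AC4, which could not be tested, had at most 10, 15 and 1 counts in a library. The libraries were made from polyadenylated RNA, so these values do not measure histone RNA that lacks a poly(A) tail.

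CDKN1A, the p21 inhibitor of the G1/S kinases, averaged 3816 TPM over the 6 libraries, above every one of the 42 replication genes, the highest of which was PCNA at 781 TPM. It was picked for its level after the values were seen. CDKN1A had 5675, 5160 and 4753 CPM in the PRDM16 libraries, against 4628, 3869 and 4434 CPM in the NC libraries. The groups did not overlap, and the log2 fold change of 0.27 did not pass in edgeR (adjusted p = 0.303). With the length and GC trend removed it was 0.11.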
